A study of Homo sapiens with 6 samples.

Results

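The genes described here lie side by side on the long arm of chromosome 15, from 45.4 to 64.2 Mb of the GRCh38 build, a stretch of 18.8 Mb. A gene was a member if it started in that stretch and had a mean normalised value of at least 10 over the 6 libraries, which gave 104 members among the 16347 genes tested and among the 596 tested on chromosome 15. The stretch itself was selected on the comparison of resistant with parental cells in these same libraries, so the members' differences between the groups are given as a description with no test. The cells were H526, an established small cell lung cancer line. The parental group was H526 itself (libraries 1 to 3), and the resistant group was H526 made resistant to onvansertib, an inhibitor of the mitotic kinase PLK1, by growth in onvansertib raised from 10 to 75 nM (libraries 7 to 9). Each group had 3 libraries of bulk RNA from a single line, harvested at separate times. The spread between libraries may come from harvest or technical differences. It does not measure the spread between separately derived resistant lines. In bulk RNA, fewer cells of a type and less RNA per cell cannot be told apart.

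Small cell lung cancers are sorted by the transcription factors they express, and POU2F3 marks the tuft-cell-like kind, named after a chemosensory epithelial cell. Neighbouring genes on a chromosome usually have unrelated functions and separate promoters. The stretch described here holds motor proteins and small GTPases of vesicle traffic, enzymes that add or remove ubiquitin, actin-binding proteins, a mitotic cyclin and the membrane protease ADAM10. B2M, which encodes beta-2-microglobulin, the invariant light chain of MHC class I, starts at 44.7 Mb, before the first member, and is not one of them.

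The estimated depth was 25660866 to 28493545 reads in the parental and 22309529 to 23305070 reads in the resistant libraries, and 3 reads were worth between 2.67 and 3.23 normalised units, a limit that covers counting error only. Of the tuft-cell-like markers, POU2F3 had means of 25809 in parental and 27273 in resistant cells, and ASCL2, GFI1B, AVIL and TRPM5 were present in every library. ASCL2 and AVIL had means of 8826 and 20954 in parental and lower means of 6376 and 12018 in resistant cells. GFI1B and TRPM5 had means of 3246 and 189 in parental and higher means of 3741 and 643 in resistant cells. Of the neuroendocrine markers, NEUROD1 did not exceed 5.49 in any library, while INSM1, SYP, NCAM1 and CHGA were present, with means of 6091, 1334, 4384 and 254 in parental and lower means of 1253, 301, 3139 and 12.8 in resistant cells. The defining markers of immune and endothelial cells, PTPRC, CD68 and PECAM1, did not exceed 2.42 in any library, while the fibroblast gene COL1A1 lay between 42.0 and 84.2 in parental and between 229 and 293 in resistant libraries. The part of COL1A1-expressing cells in the results was not tested.

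Promoter sequences are shown for 4 genes on which the account turns: B2M at the edge, the members with the largest positive (GCNT3) and most negative (SCG3) difference among protein-coding genes, and the member with the highest mean value (ARPP19). Each runs 5′ to 3′ from 250 bases before to 50 after the start given by RefSeq on GRCh38.p14, at chr15:44711267-44711566 (plus strand) for B2M, chr15:59611533-59611832 (plus) for GCNT3, chr15:51681253-51681552 (plus) for SCG3 and chr15:52569397-52569696 (minus) for ARPP19. Capitals mark matches on either strand to the interferon-stimulated response element, GGGCGG (the GC box) or CCAAT (the CCAAT box, which reads ATTGG on the other strand). TATAAA (the TATA box) and CCGGAAG (a motif of ETS factors) were searched too and had no match in these 4 windows.
B2M: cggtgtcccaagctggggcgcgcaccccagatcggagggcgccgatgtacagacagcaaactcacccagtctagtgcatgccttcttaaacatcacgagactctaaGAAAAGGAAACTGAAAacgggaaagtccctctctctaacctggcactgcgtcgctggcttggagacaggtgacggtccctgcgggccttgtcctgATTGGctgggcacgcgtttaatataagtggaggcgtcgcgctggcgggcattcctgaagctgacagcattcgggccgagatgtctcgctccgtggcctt
GCNT3: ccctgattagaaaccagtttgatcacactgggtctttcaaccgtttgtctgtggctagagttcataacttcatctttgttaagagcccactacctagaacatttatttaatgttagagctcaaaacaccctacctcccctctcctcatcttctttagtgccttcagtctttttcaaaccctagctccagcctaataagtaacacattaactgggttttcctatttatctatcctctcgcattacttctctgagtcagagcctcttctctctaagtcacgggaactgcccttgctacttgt
SCG3: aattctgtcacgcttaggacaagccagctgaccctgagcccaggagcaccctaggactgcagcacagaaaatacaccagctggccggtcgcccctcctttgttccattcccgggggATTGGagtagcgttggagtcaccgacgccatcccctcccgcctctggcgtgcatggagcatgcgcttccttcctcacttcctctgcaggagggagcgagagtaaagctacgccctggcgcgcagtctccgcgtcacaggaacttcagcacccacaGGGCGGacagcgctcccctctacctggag
ARPP19: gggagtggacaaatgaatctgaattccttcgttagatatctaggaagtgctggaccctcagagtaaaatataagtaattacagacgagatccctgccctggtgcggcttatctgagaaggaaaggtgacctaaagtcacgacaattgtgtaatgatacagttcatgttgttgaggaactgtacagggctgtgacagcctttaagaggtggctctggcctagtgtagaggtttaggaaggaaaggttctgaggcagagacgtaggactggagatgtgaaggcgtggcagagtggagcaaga

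The B2M window held 2 overlapping matches to the interferon-stimulated response element and an inverted CCAAT box, the SCG3 window an inverted CCAAT box and a GC box, and the GCNT3 and ARPP19 windows none. Of the members, 88 had a promoter in the RefSeq table. The interferon-stimulated response element was found in 3 of them (3.41%), those of RAB27A, PIGBOS1 and C2CD4A, against 2.53% of the 11644 promoters of tested genes and 3.57% of all 35116 promoters. The other motifs were present in shares near those of tested genes: the GC box in 65.9% of member promoters against 70.2%, CCAAT in 31.8% against 36.6%, TATAAA in 5.68% against 5.60%, and CCGGAAG in 19.3% against 18.6%. The median number of CpG dinucleotides per window was 25.5 in members and 26.0 in tested genes. These matches describe the letters only.

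Most of the genes in the stretch were silent or nearly so. The table listed 395 genes there, of which 206 were at 0 in all libraries and 85 were above 0 with a mean under 10, leaving the 104 members (26.3%): 92 protein-coding genes, 11 lncRNAs and 1 processed pseudogene. Nearest the minimum were ONECUT1, MINDY2-DT and ENSG00000259250 inside it, with means of 11.8, 10.62 and 10.22, and SEMA6D, SHC4 and ENSG00000284540 outside it, with means of 9.98, 8.90 and 7.83. No member was at or under 3 reads in all libraries of a group. CERNA1, ONECUT1, C2CD4B and MINDY2-DT had parental means under 10 (5.48, 6.42, 7.98 and 9.66). They passed the minimum only through the resistant group, so their higher mean there was fixed by the rule. ENSG00000259250, with means of 11.0 in parental and 9.48 in resistant cells, passed only through the parental group, so its lower resistant mean was fixed too. The library preparation was not stated to keep strand, and 41 members overlapped a tested gene on the other strand and 12 one on the same strand, so reads of those pairs could not be fully told apart.

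Members were higher in resistant than in parental cells by a modest amount that many of them shared. The log2 fold change, on the log2(value + 1) scale, was above 0 in 93 of 104 members (89.4%), against 49.9% of all tested genes. Its median was 0.53, a ratio of 1.45, with quartiles at 0.34 and 0.93, and the median of all tested genes was -0.001. Between 0.25 and 0.75 lay 47 members (45.2%), against 18.1% of all tested genes. The values of all members summed to 112987 ± 4482 (SD, n = 3) in parental and 161573 ± 3372 (SD, n = 3) in resistant libraries, which was 0.45% and 0.673% of all values.

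**Figure D1:**
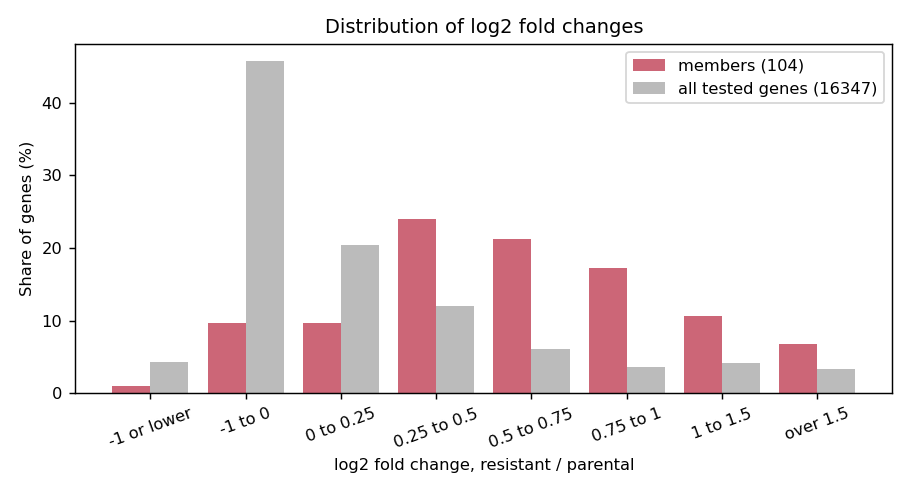
Share of genes (vertical axis, percent) by log2 fold change of resistant over parental cells (horizontal axis) for the 104 members (red) and all 16347 tested genes (grey). The members sit mostly between 0.25 and 1 (62.5%), where 21.8% of all tested genes lie.

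By limma with Benjamini-Hochberg adjustment over all tested genes at 0.05, 71 members were called higher, against a background of 17.8% of tested genes, and 3 were called lower (SCG3, GABPB1 and TEX9), against 19.8%. The groups did not overlap in 78 members with resistant libraries higher, against 24.0% of tested genes, and in 6 with resistant libraries lower, against 25.9%. The stretch was chosen on this contrast, so nothing is read from these counts.

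The shift was similar in each resistant library. Measured against the mean of the other parental libraries, the median member deviated by 0.06, -0.03 and 0.002 in parental libraries 1, 2 and 3, and by 0.59, 0.59 and 0.53 in resistant libraries 7, 8 and 9. The members above that mean numbered 91, 93 and 90 in the 3 resistant libraries and 61, 45 and 52 in the parental ones. No resistant library overlapped a parental library in its median.

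**Figure D2:**
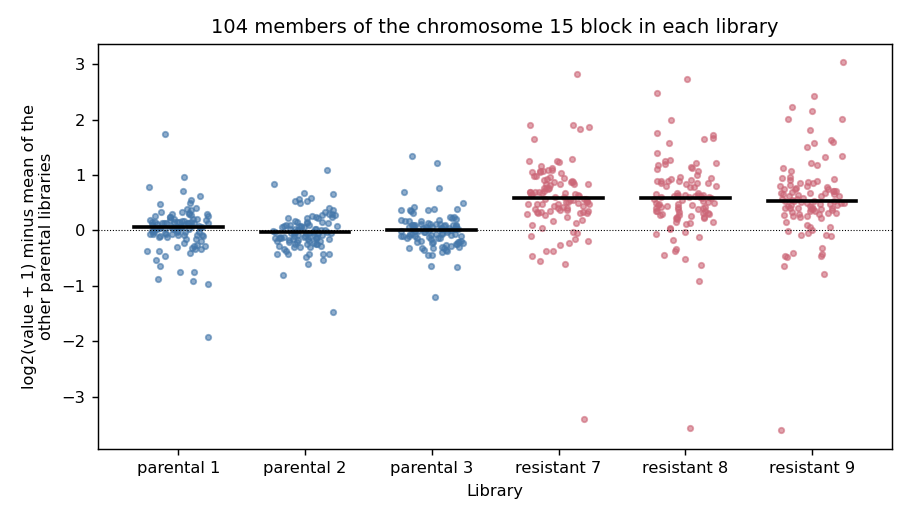
Difference of each member from the mean of the other parental libraries on the log2(value + 1) scale (vertical axis) in the 6 libraries (horizontal axis), with points for the 104 members and black bars for medians. The 3 parental medians lie between -0.03 and 0.06 and the 3 resistant medians between 0.53 and 0.59.

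Members of high and of intermediate level had nearly equal medians. Of the 45 members with a mean of at least 1000, 43 were above 0, with a median of 0.505, while 41.3% of all tested genes at that level were above 0. The 32 members with means from 100 to 1000 had a median of 0.525, and the 27 with means from 10 to 100 a median of 0.94 with a wider spread. This lowest class holds CERNA1, ONECUT1, C2CD4B and MINDY2-DT, whose direction was fixed by the rule. All tested genes with means from 100 to 1000 had a median of -0.01. Those with means from 10 to 100 were themselves shifted, with 62.0% above 0 and a median of 0.228. Members on the minus strand (57 of 60 above 0, median 0.64) and on the plus strand (36 of 44, median 0.498) both lay above 0, as did the 11 lncRNAs (10 above 0, median 0.63). CERNA1 and MINDY2-DT are among these lncRNAs. Of all tested lncRNAs, 64.0% were above 0, with a median of 0.212. The 54 members that overlapped no tested gene had a median of 0.56.

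The median was above 0 in each part of the stretch. Cut into 4 equal lengths, the first held 17 members, all above 0, with a median of 0.59. The next 3, with 25, 33 and 29 members, had medians of 0.66, 0.45 and 0.66. The widest distances between the starts of neighbouring members were 2.5 Mb from SQOR to MYEF2, 1.66 Mb from WDR72 to ENSG00000279145, and 1.36 Mb from RORA to VPS13C. The members nearest the start were SPATA5L1, C15orf48 and SLC30A4, with log2 fold changes of 0.35, 0.77 and 0.96, and those nearest the end were PPIB, CSNK1G1 and ENSG00000259316, with 0.30, 0.395 and 0.49.

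Beyond the end, medians were smaller than the median of all members, but the difference did not stop at 64.2 Mb. PCLAF, TRIP4 and ZNF609, the first tested genes outside, had log2 fold changes of 0.58, 0.36 and 0.31. The 49 tested genes of the next 5 Mb had a median of 0.31 with 39 above 0, and bins of 5 Mb from 65 to 85 Mb had medians from 0.35 to 0.43. Inside the stretch, the bin from 55 to 60 Mb had a median of 0.40, within that range. From 85 Mb to the end of the chromosome the medians were negative, from -0.65 to -0.36. Before the start, the 90 tested genes of the preceding 5 Mb had a median of 0.21 with 58 above 0. Over all 492 chromosome 15 genes outside the stretch the median was 0.21. No test of these differences between stretches was run.

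**Figure D3:**
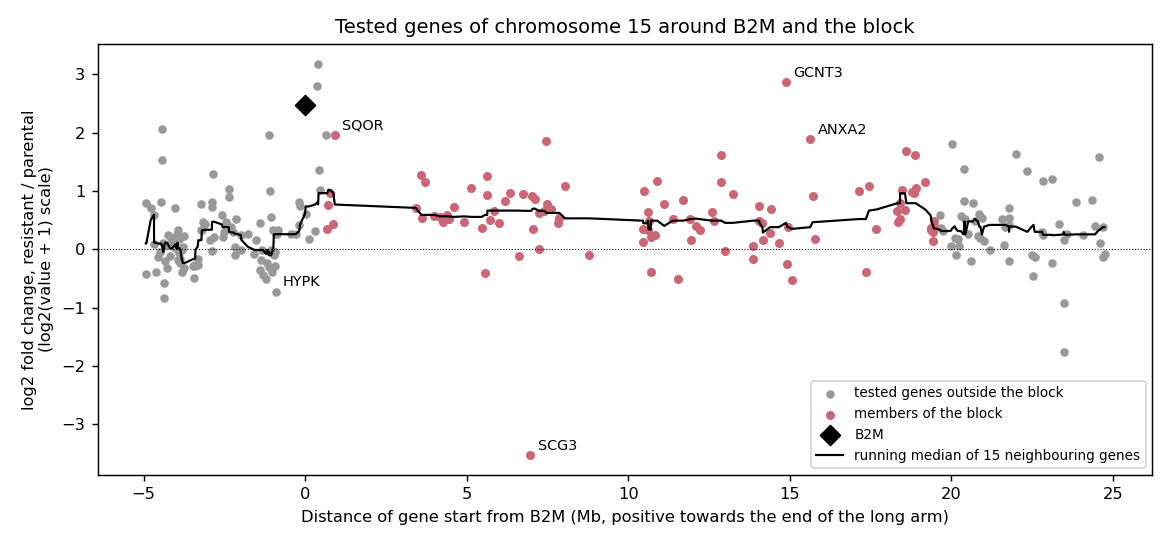
Log2 fold change of resistant over parental cells (vertical axis) for tested genes by distance of their start from that of B2M (horizontal axis, Mb), with members in red, other genes in grey, B2M as a black diamond and the running median of 15 neighbouring genes as a line. Members lie mostly above 0, GCNT3 at 2.86 and SCG3 at -3.53 stand apart, and the line stays above 0 beyond the last member.

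Several members differed by far more than the median. GCNT3, a glycosyltransferase that builds branched mucin-type glycans, had 406, 299 and 393 in parental libraries and 2582, 2413 and 2977 in resistant ones, a log2 fold change of 2.86 ± 0.13 (SE). Its end overlaps that of GTF2A2 on the other strand, so how reads of the overlap were divided is uncertain. ANXA2, a calcium-dependent membrane-binding protein, went from 295, 387 and 292 to 1178, 1093 and 1307 (1.88 ± 0.13). SQOR, a mitochondrial enzyme that oxidises hydrogen sulfide, had 14.7, 14.2 and 15.3 in parental and 57.8, 45.9 and 83.6 in resistant libraries (1.97 ± 0.31). In GCNT3, ANXA2 and SQOR every resistant library lay above every parental one. The carbonic anhydrase CA12 (1.68), the F-box protein FBXL22 (1.62), CERNA1 (1.86), GCOM1 (1.62), DUT-AS1 (1.28), GABPB1-AS1 (1.26) and PRTG (1.17) completed the 10 largest. CERNA1, CA12 and FBXL22 had parental values no higher than 6.64, 16.4 and 16.6, and a pseudocount of 10 brought CERNA1 to 1.06 and CA12 to 1.12. CERNA1 passed the minimum mean only through the resistant group, so the direction of its difference was fixed by the rule.

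Only 11 of the 104 members were at or below 0, among them ENSG00000259250, whose lower resistant mean was fixed by the rule. SCG3, a granin of neuroendocrine secretory granules, was the exception in size, with 267, 177 and 136 in parental and 16.6, 14.8 and 14.3 in resistant libraries (-3.53 ± 0.28). Every resistant library lay far below every parental one. Neuroendocrine genes elsewhere in the genome moved with it: INSM1 had means of 6091 ± 571 (SD, n = 3) and 1253 ± 114, and SYP 1334 ± 126 and 301 ± 54.7. The part of these genes' change in that of SCG3 was not tested. RPS3AP6 (-0.53), TEX9 (-0.52), GABPB1 (-0.40) and PIERCE2 (-0.40) followed.

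GABPB1, a subunit of an ETS-family transcription factor complex, was lower while the transcripts that overlap it were higher. It had 1073, 824 and 946 in parental and 726, 727 and 687 in resistant libraries (-0.40 ± 0.11). GABPB1-AS1, transcribed from the other strand, went from 281, 334 and 397 to 751, 809 and 844, and GABPB1-IT1 from 251, 361 and 330 to 498, 607 and 679. GABPB1-IT1 lies within GABPB1 and GABPB1-AS1 overlaps its start, so how reads of the overlaps were divided is uncertain. POLR2M and GCOM1, which also overlap, had log2 fold changes of -0.02 and 1.62, and POLR2M was 2498 in resistant library 8 against 1257 and 1290 in libraries 7 and 9.

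Sorted by role, all 7 lists had a median above 0, beside that of 0.53 over all members, and 69 members fell in a list. The lists were drawn from a stretch chosen for being higher, so nothing is read from the sign of their medians. In vesicle and membrane traffic, 14 of 15 members were above 0 (median 0.77), SCG3 being the exception. The actin motor of vesicles MYO5A went from 2867, 2521 and 2705 to 4604, 4648 and 3886 (0.70 ± 0.08). VPS13C, which transfers lipid between membranes, went from 1611, 1663 and 1750 to 3494, 3907 and 2748 (1.00 ± 0.11). Both were higher in every resistant library. DMXL2 (0.95) and the sorting nexin SNX1 (0.36) were the others with the highest means.

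In the ubiquitin system all 8 members were above 0 (median 0.75). HERC1, a giant ubiquitin ligase, had 2576, 1856 and 2835 in parental and 5216, 5576 and 4178 in resistant libraries (1.06 ± 0.15). USP3, a histone deubiquitinase, went from 1770, 1329 and 1515 to 3026, 2823 and 3219 (0.98 ± 0.10). The groups did not overlap in either. COPS2, a subunit of the COP9 signalosome, and USP8, an endosomal deubiquitinase, had log2 fold changes of 0.59 and 0.505.

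In actin and cell shape all 8 were above 0 (median 0.68). TPM1, the tropomyosin that lies along actin filaments, had 5725, 3759 and 4451 in parental and 8219, 6402 and 7242 in resistant libraries (0.66 ± 0.14). TMOD3, which caps filament ends, went from 2768, 2588 and 2422 to 4937, 4828 and 4365 (0.86 ± 0.08). MYO1E was at 0.69 and TLN2 at 0.35, the latter with overlapping groups.

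Metabolism and transport (10 of 10 above 0, median 0.80) and surface proteases and signalling (8 of 8, median 0.67) held members on both sides of the overall median. The channel kinase TRPM7 (0.66), the fatty acid transporter SLC27A2 (0.37) and the mitochondrial protein LACTB (0.52) accompanied GCNT3. ADAM10, a protease that sheds membrane proteins, had 5268, 4868 and 5499 in parental and 5051, 5339 and 5796 in resistant libraries (0.05 ± 0.07), with overlapping groups. APH1B, a gamma-secretase subunit, was at 0.68, BNIP2 at 0.38 and CSNK1G1 at 0.395.

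The cell cycle and transcription lists had the lowest medians, 0.45 (6 of 7 above 0) and 0.42 (11 of 14). ARPP19, an inhibitor of the phosphatase PP2A in mitosis, went from 6609, 6063 and 6405 to 8945, 8833 and 8211 (0.45 ± 0.06). The mitotic cyclin CCNB2 had 3955, 3268 and 3582 in parental and 4595, 4208 and 4349 in resistant libraries (0.29 ± 0.08). DUT, which keeps uracil out of DNA, was at 0.535, and the atypical MAP kinase MAPK6 was at 0.01 ± 0.09 with overlapping groups. Among transcription genes, EID1 (0.555) and TCF12 (0.33) were higher in every resistant library, SLTM was at 0.16, and the general factor GTF2A2 at -0.25. Per kilobase of the longest transcript, EID1 had mean levels of 1356 in parental and 1991 in resistant cells, CCNB2 of 1439 and 1752, and TPM1 of 1174 and 1842.

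The 35 members in no list had a median of 0.47, with 29 above 0. PPIB, a chaperone that folds proteins in the endoplasmic reticulum, had 5618, 5397 and 5391 in parental and 6868, 6075 and 7306 in resistant libraries (0.30 ± 0.07). RSL24D1, a ribosome assembly factor, went from 2500, 2488 and 2632 to 3351, 3253 and 3051 (0.34 ± 0.07). Both were higher in every resistant library. RPS27L, a ribosomal protein paralogue, went from 723, 590 and 675 to 1242, 1024 and 1173 (0.79 ± 0.11). MYZAP, which shares its locus with GCOM1, had 133, 278 and 181 in parental and 398, 397 and 472 in resistant libraries (1.16 ± 0.23). WDR72 (-0.11), GLDN (-0.12) and FAM81A (0.10) had overlapping groups.

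The 6 members of the vesicle list with means under 1000 included SCG3, the most negative member, and 5 that were above 0. RAB27A, a GTPase that docks secretory vesicles, had 221, 222 and 178 in parental and 376, 489 and 379 in resistant libraries (1.00 ± 0.15). RAB8B, a GTPase of transport to the cell surface, went from 570, 343 and 481 to 891, 848 and 1035 (1.02 ± 0.17). The groups did not overlap in either. LYSMD2 was at 0.92 ± 0.17. ATP8B4 (1.04 ± 0.47) and SNX22 (0.15 ± 0.12), by contrast, had overlapping groups. The cilium gene MNS1 was at 0.85, and the centrosome protein CEP152 at 0.56, with 691, 689 and 717 in parental and 1061, 1064 and 978 in resistant libraries. In the transcription list, ICE2 went from 1765, 1639 and 1339 to 2798, 3419 and 2751 (0.92 ± 0.12).

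Relatives of members on other chromosomes, which the rule did not use, were tested. Of 34 tested, 13 were above 0, with a median of -0.13, where 49.9% of all tested genes were above 0. Limma called 6 higher (MYO1C, NEDD4L, TLN1, TPM2, VPS13B and VPS13D) and 11 lower, against 17.8% and 19.8% of all tested genes. The list of relatives was drawn up with earlier results of these data known, so nothing is read from these shares. The 11 included UNC13A (-6.09), whose relative UNC13C is not a member, and the granins CHGA and CHGB. CCNB1, another B-type cyclin, had a log2 fold change of -0.26 (limma, Benjamini-Hochberg adjusted p = 0.0618). ENSA, the close relative of ARPP19, fell by 0.40 on the log2 scale (adjusted p = 0.000868), and ADAM17, that of ADAM10, by 0.29 (adjusted p = 0.0103). The granins CHGA and CHGB, relatives of SCG3 in function, had log2 fold changes of -4.22 and -3.77. VPS13B was higher by 0.52 (adjusted p = 0.000393), as VPS13C was.

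**Figure D4:**
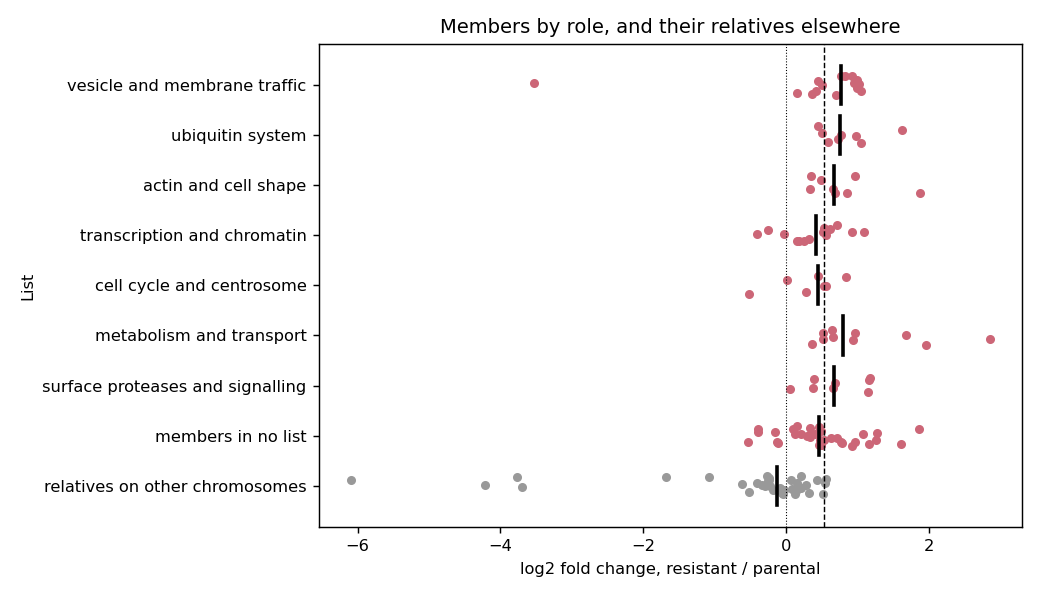
Log2 fold change of resistant over parental cells (horizontal axis) for members by role list and for 34 relatives on other chromosomes (grey), with points for genes, black bars for list medians, a dashed line at the median of all members (0.53) and a dotted line at 0. The 7 lists have medians from 0.42 to 0.80, and the relatives a median of -0.13.

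Whether the shift reaches B2M was asked of genes that are not members. B2M had 1233, 1327 and 1191 in parental and 6869, 6455 and 7622 in resistant libraries, so every resistant library lay above every parental one. Its log2 fold change was 2.48 ± 0.08 (SE; limma, Benjamini-Hochberg adjusted p = 4.29e-08). The exact two-sided permutation test gave p = 0.10, the smallest that 3 against 3 libraries allow. Among members only GCNT3 had a larger value, and 0.973% of tested genes did.

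The 8 tested genes just before B2M and the 8 between it and the first member were all above 0. Between it and the first member, TRIM69 had a log2 fold change of 0.61, SORD2P of 0.18, the sorbitol dehydrogenase SORD of 0.31, the NADPH oxidase DUOX2 of 2.79, its maturation factor DUOXA2 of 3.18, DUOX1 of 1.35, SHF of 1.02 and the creatine-synthesis enzyme GATM of 1.96. DUOXA2 was at 0, 6.61 and 0 in parental and 7.14, 49.4 and 12.9 in resistant libraries, so it passed the minimum through the resistant group, and its value ranged from 1.27 to 5.36 with the pseudocount. SORD2P and DUOX2 missed the threshold (adjusted p = 0.583 and 0.0679), and DUOX2 ranged from 2.03 to 58.4 in parental and from 36.1 to 487 in resistant libraries. The calls of TRIM69, SORD, DUOXA2 and DUOX1 were lost when single libraries were left out. GATM went from 334, 458 and 321 to 1411, 1428 and 1432 (adjusted p = 3.82e-06). An unbroken run of 35 tested genes above 0 extended from MFAP1 at 43.8 Mb to SLC27A2 at 50.18 Mb, 8 of them before B2M and 26 after, but 18 of the 35 are members, from the stretch chosen for being higher. HYPK and SERF2, which overlap each other just before the run, had log2 fold changes of -0.73 and -0.285 (limma, adjusted p = 0.000176 and 0.00615). Of the 23 tested genes starting from 43 to 44 Mb, 9 were above 0, with a median of -0.042. Further out, from 42 to 43 Mb, 12 of 14 were above 0, with a median of 0.295.

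Set beside the members, the genes before them lay on both sides. Relative to the median of the members in each library, a comparison added after the data were seen, B2M was at 1.92, GATM at 1.40 and SHF at 0.46. TRIM69 was at 0.05, SPG11 at 0.175, EIF3J at -0.14, SORD at -0.25 and MFAP1 at -0.30. These differences carry no test, because the members they are measured from were chosen on the same contrast.

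**Figure D5:**
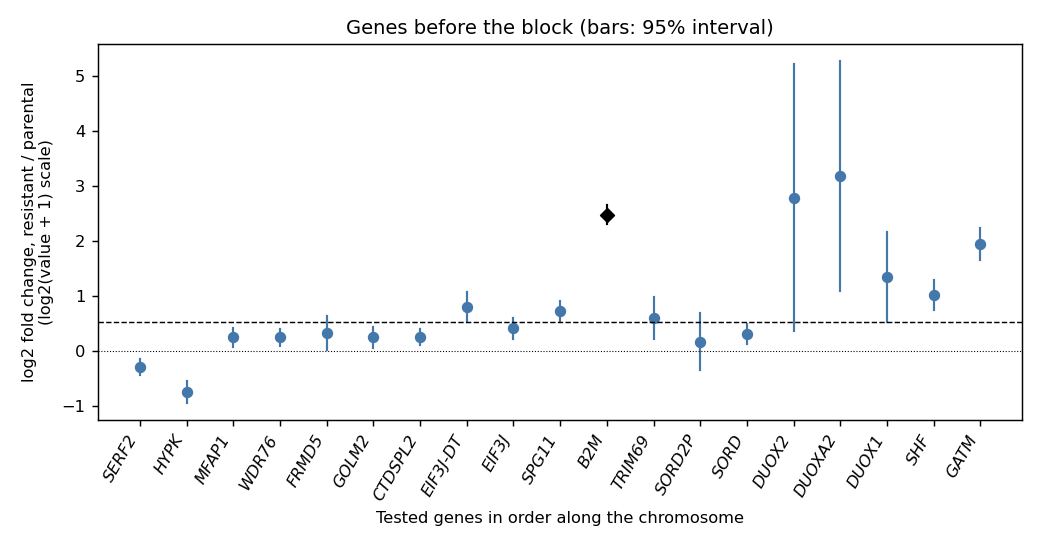
Log2 fold change of resistant over parental cells (vertical axis) for B2M, the 10 tested genes before it and the 8 between it and the first member, in order along the chromosome, with points for estimates, bars for 95% intervals, a dotted line at 0 and a dashed line at the median of the members (0.53). B2M (black diamond) lies at 2.48, HYPK at -0.73, and DUOX2 and DUOXA2 have the widest intervals.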

How the data were processed

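RNA of 3 parental and 3 onvansertib-resistant H526 libraries was compared. The authors trimmed reads with Trimmomatic 0.38, quantified them with RSEM 1.3.1 (STAR) on GRCh38 with Gencode v43, and deposited a signal per gene and library, counts normalised with DESeq2 1.30.0. Values are not counts, and whole reads could not be recovered (56.3% to 64.7% of low values were whole within 0.1), so no count test was run.

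Of 62757 rows, 47 second copies of pseudoautosomal genes were left out, and Gencode v44 placed 62639 of 62710. The 16347 genes with a mean of at least 10 were fitted on log2(value + 1), which understates changes of low genes, with limma 3.58.1 (R 4.3.3; eBayes with a trend) and Benjamini-Hochberg adjustment at 0.05. The limma step was tested on simulated data, where its estimates were close to the known folds and most changes of well-expressed genes were called, but many changes of genes with a mean under 100 were missed. Figures and descriptions used Python 3.11.15. Alternatives were pseudocounts of 0.1 and 10, no minimum, a minimum of 50, TMM, quantile normalization, no trend, each library left out and, for medians, a GC and length correction.

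The members and lists were chosen with earlier results of these data known. Named genes were B2M and those before the first member, 3 members and 3 genes at each edge, the 10 largest and 5 most negative members, the 5 highest means, up to 4 highest of each role list, and relatives elsewhere. Other members named, and genes before B2M, were chosen after their values were seen. Groups came from the labels. A marker gene is not reported here.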

Additional observations from a re-analysis of the deposited data

How the results depend on the processing

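The median log2 fold change of members (0.53) stayed between 0.517 and 0.591 over all alternatives, and between 0.533 and 0.591 with a library left out, the highest without parental library 1. Members called higher numbered 62 to 72 and lower 2 to 4, and with a library left out 62 to 67 and 2 to 3. Leaving centring on members aside, B2M stayed between 2.41 and 2.54 and kept its call in all alternatives. Centring gave 1.92, which carries no test because the members were chosen on the same contrast. The 5 Mb after the block (0.31) gave 0.256 with a minimum mean of 50, 0.367 with quantile normalization and 0.301 to 0.361 with a library left out. The 5 Mb before (0.21) gave 0.182 to 0.25 with a library left out. Centring on members turned SORD to -0.248 and SORD2P to -0.38, and quantile normalization turned SORD2P to -0.005. By limma, calls were lost for DUOX1 without parental library 1 or 3 or resistant 9 (adjusted p 0.0506 to 0.066), DUOXA2 without parental 1 or 3 (0.0734 to 0.075), SORD without parental 3 or resistant 7 (0.058 to 0.0597), TRIM69 without parental 1 or resistant 7 or 9 (0.0525 to 0.0678) and TRIP4 without parental 2 or 3 or resistant 7 or 8 (0.0605 to 0.0647). Without the trend DUOXA2, SORD, TRIM69 and ZNF609 lost theirs (0.0515 to 0.0677). DUOX2 passed without parental library 2 (adjusted p = 0.0304, limma) or resistant library 7 (0.032). A pseudocount of 10 gave 1.06 for CERNA1 (1.86), 1.12 for CA12 (1.68) and 0.47 for C15orf48 (0.77), and pseudocounts of 10 and 0.1 gave 1.27 and 5.36 for DUOXA2 (3.18). The causes were not tested. No paired analysis was possible because the labels number the groups 1 to 3 and 7 to 9 and do not say which parental and resistant libraries were harvested together, although the study describes RNA taken from both at separate times. Depth limits the members with means near 10, whose values are a few reads.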
